A study of Homo sapiens with 4 samples.

Results

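The genes that hold the non-canonical NF-κB pathway in check, together with the receptors and kinases they act on, were examined for IRF3 binding in MM1.S cells. MM1.S is a widely used human cell line grown from multiple myeloma, a cancer of plasma cells. The set held 10 genes of 20033 protein-coding genes: the receptors CD40 and LTBR, the adaptors TRAF2 and TRAF3, the ubiquitin ligases BIRC2 and BIRC3, the deubiquitinase CYLD, and the kinases MAP3K14, CHUK and IKBKB. They were chosen by name for their place in the pathway, with earlier results of these data known. A peak was assigned to a gene when its summit lay inside the gene span or within 10 kb of it. The ChIP-seq libraries numbered 2, each with its own input library, and all 4 came from cells of this line that had received no treatment. With 1 condition there is no contrast between treatments, so binding was described gene by gene in both replicates and set beside all protein-coding genes, with no statistical test. The labels do not say whether the replicates were separate cultures, and their spread may be technical only.

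In the non-canonical pathway, the kinase NIK, the product of MAP3K14, is made continuously and destroyed continuously. TRAF3 and TRAF2 bring NIK to the ubiquitin ligases BIRC2 and BIRC3 (cIAP1 and cIAP2), which mark it for the proteasome. When a receptor such as CD40 or the lymphotoxin beta receptor is engaged, TRAF3 is degraded, NIK accumulates and activates the kinase IKKα, encoded by CHUK, and IKKα drives processing of the NFKB2 precursor. Lesions in TRAF3, the BIRC2 and BIRC3 pair, CYLD, CD40 and NIK are known in multiple myeloma, which makes these genes familiar in this tumour. IRF3 is a transcription factor known for switching on type I interferon and antiviral genes.

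RefSeq promoter windows of assembly GRCh38.p14, from 250 bases before to 50 bases after an annotated start, were available for 8 of the 10 genes and numbered 11, because BIRC2 has 2 annotated starts and CYLD 3. No window was read for CD40 and IKBKB. Of the windows, 5 are shown in the direction of transcription: BIRC3 and CYLD because they hold both an IRF core and a κB core, TRAF3 because it holds a κB core, MAP3K14 because a strong IRF3 region covered a start with neither core, and LTBR because it is the start without a peak. Capitals mark the IRF core AANNGAAA and the κB core GGNNTTTCC, on either strand. The windows lie at chr11:102317234-102317533 (BIRC3, plus strand), chr16:50741836-50742135 (CYLD, plus strand, the first of its starts), chr14:102777199-102777498 (TRAF3, plus strand), chr17:45316971-45317270 (MAP3K14, minus strand) and chr12:6383912-6384211 (LTBR, plus strand).
BIRC3: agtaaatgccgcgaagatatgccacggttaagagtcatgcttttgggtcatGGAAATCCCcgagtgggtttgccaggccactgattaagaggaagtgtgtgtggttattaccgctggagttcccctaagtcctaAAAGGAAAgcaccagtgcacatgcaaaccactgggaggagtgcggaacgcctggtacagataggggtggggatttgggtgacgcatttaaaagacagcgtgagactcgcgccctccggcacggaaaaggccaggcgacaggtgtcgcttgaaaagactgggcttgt
CYLD: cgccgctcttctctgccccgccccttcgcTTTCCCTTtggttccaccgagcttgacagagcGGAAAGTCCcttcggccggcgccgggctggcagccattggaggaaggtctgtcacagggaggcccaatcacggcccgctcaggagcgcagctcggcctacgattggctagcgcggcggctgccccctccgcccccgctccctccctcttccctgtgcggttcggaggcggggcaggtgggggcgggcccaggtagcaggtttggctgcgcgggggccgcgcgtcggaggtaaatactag
TRAF3: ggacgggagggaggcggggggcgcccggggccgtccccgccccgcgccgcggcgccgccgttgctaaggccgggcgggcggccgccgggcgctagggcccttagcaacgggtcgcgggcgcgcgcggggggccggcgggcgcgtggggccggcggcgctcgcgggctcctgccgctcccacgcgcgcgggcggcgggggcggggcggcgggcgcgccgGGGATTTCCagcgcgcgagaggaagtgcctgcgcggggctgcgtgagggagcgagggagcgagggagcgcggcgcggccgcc
MAP3K14: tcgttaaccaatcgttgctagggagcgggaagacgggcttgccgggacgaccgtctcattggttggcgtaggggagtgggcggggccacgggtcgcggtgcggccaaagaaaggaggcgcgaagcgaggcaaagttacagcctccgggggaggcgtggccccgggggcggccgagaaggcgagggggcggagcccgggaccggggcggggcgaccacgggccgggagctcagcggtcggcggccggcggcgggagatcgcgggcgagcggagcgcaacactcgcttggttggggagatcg
LTBR: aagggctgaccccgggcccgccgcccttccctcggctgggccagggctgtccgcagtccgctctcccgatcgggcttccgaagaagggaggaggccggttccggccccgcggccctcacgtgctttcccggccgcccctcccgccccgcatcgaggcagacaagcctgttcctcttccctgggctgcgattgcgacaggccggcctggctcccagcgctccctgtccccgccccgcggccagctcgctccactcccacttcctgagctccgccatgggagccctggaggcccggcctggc

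Both cores together were found in the BIRC3 window and in the first CYLD window. The IRF core of BIRC3 began 116 bases before the start (AAAGGAAA) and its κB core 199 bases before it, on the reverse strand (GGAAATCCC as printed). The CYLD cores began 221 and 189 bases before the first start, both on the reverse strand (TTTCCCTT and GGAAAGTCC as printed), and the κB core of TRAF3 began 32 bases before its start (GGGATTTCC). The IRF core stood in 2 of the 11 windows and in 22.8% of 35116 promoter windows of all genes. The κB core stood in 3 of the 11, and in 6.26% of all. Of 7 other motifs searched on both strands, the CRE TGACGTCA stood in 3 of the 11 windows (BIRC2 in the windows of both starts, and CYLD) and in 1.85% of all, and the ETS motif CCGGAAG in 2 (BIRC2 and CHUK) and 10.3% of all. The Sp/KLF motif GGGCGG stood in 9 windows of 6 genes and in 45.0% of all, and the NF-Y motif CCAAT in 4 windows of 3 genes and in 34.6% of all. AP-1 (TGANTCA), NRF1 (GCATGCGC) and YY1 (AANATGGCG) had no match in the 11 windows, and stood in 7.71%, 3.05% and 3.19% of all windows. These are letter matches, not measured sites, and windows of 1 gene overlap, so that a match can be counted in more than 1 of them.

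The windows ranged widely in base composition. TRAF3 had a GC content of 86% and 61 CpG dinucleotides, and BIRC3 had 53.3% and 15, the lowest of the 11 windows in both. The medians of all promoter windows were 58.7% and 14 CpG. CHUK, at 56% and 22 CpG, was the other window under the median GC content. The LTBR window, the one without a peak, had 74.3% GC and 29 CpG, within the range of the windows at occupied starts.

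IRF3 was found at most of these genes in both replicates. Peaks of the 2 lists that overlapped were merged into regions, and a region with a peak from each list is called shared. A shared region lay in the window of 9 of the 10 genes, against 69.4% of all protein-coding genes. At the start itself, within 1 kb, 8 of the 10 had one, against 51.5% of all. A shared region with a fold enrichment over input of at least 5 in both replicates was present for 8 of 10, against 42.7% of all. The genes without a shared region at the start were the receptors CD40 and LTBR, and those without one of at least 5-fold were LTBR and IKBKB. The set is small and was chosen with earlier results of these data known. Its genes are longer than most, with a median span of 44.0 kb against 24.1 kb for all genes. The counts are therefore also given by length. Per 100 kb of window the median was 3.21 shared regions in the set and 1.87 over all genes, whose quartiles were 0 and 4.08. The median of the set lay between these quartiles.

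**Figure D1:**
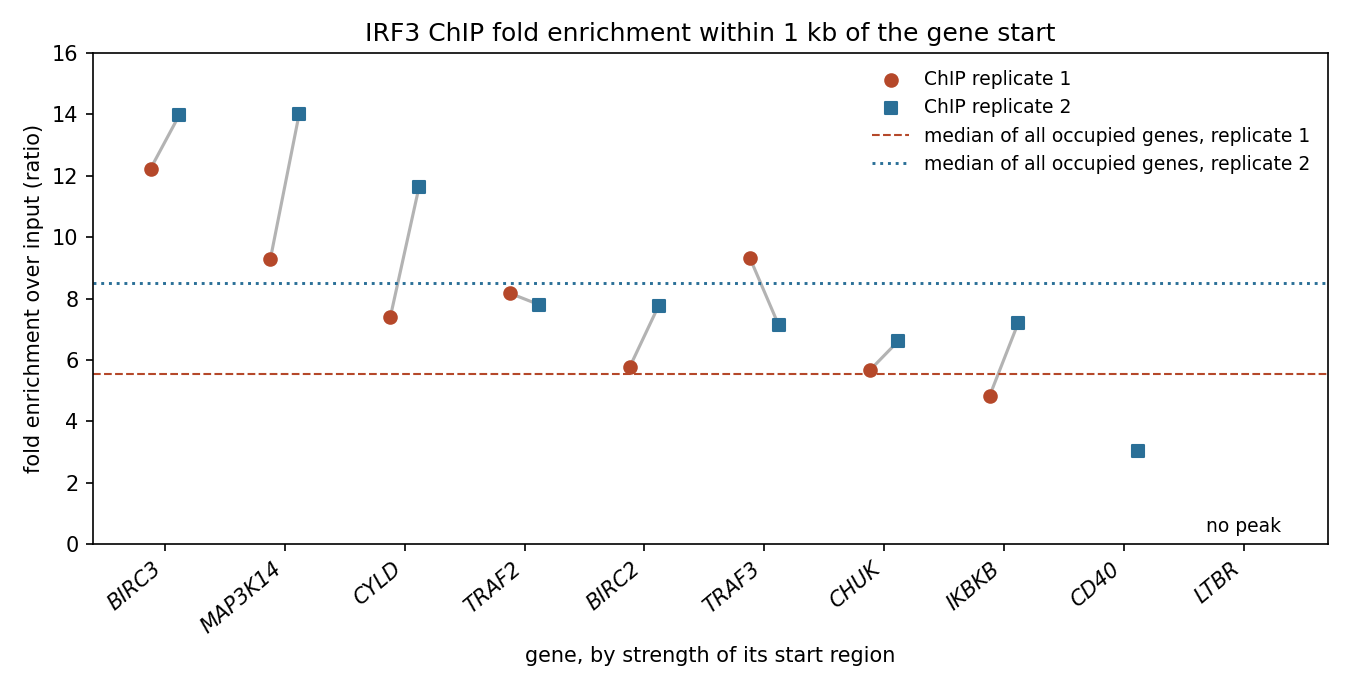
Fold enrichment over input (ratio, the authors' value) of the strongest IRF3 peak within 1 kb of the gene start in ChIP replicate 1 (circles) and replicate 2 (squares), with lines joining the replicates of a shared region and dashed and dotted lines at the medians of all occupied protein-coding genes. BIRC3 reached 12.2 and 14.0, CD40 had a weak peak in replicate 2 alone (3.04), and LTBR had none.

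The windows held 25 shared regions, 6 regions of replicate 1 alone and 1 of replicate 2 alone. Of the shared regions, 8 lay at starts, 14 inside the gene spans and 3 in the flanks. The start regions were mostly stronger than those inside the spans, and the flank regions resembled the starts more in strength. Of the flank regions, those of CHUK and IKBKB lay nearer to an end of another gene, ERLIN1 and POLB. The median fold enrichment at the starts was 7.78 in replicate 1 and 7.79 in replicate 2, compared with 3.89 and 4.34 inside the spans and 6.66 and 7.01 in the flanks. A strength percentile, the place of a region among all 32246 shared regions of the genome by the worse of its fold enrichment ranks in the 2 replicates (100 being the strongest), had a median of 83.8 at the starts (71.8 to 96.7), 43.2 inside the spans (1.10 to 82.8) and 77.2 in the flanks (46.8 to 81.1). The CD40 flank region, at 81.1, was above the start regions of CHUK and IKBKB. Among all genes occupied at a start the median percentile was 77.5. The set's start regions were above the median of all occupied genes in replicate 1 (7.78 against 5.55) and below it in replicate 2 (7.79 against 8.50), so the replicates did not place the set on the same side.

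**Figure D2:**
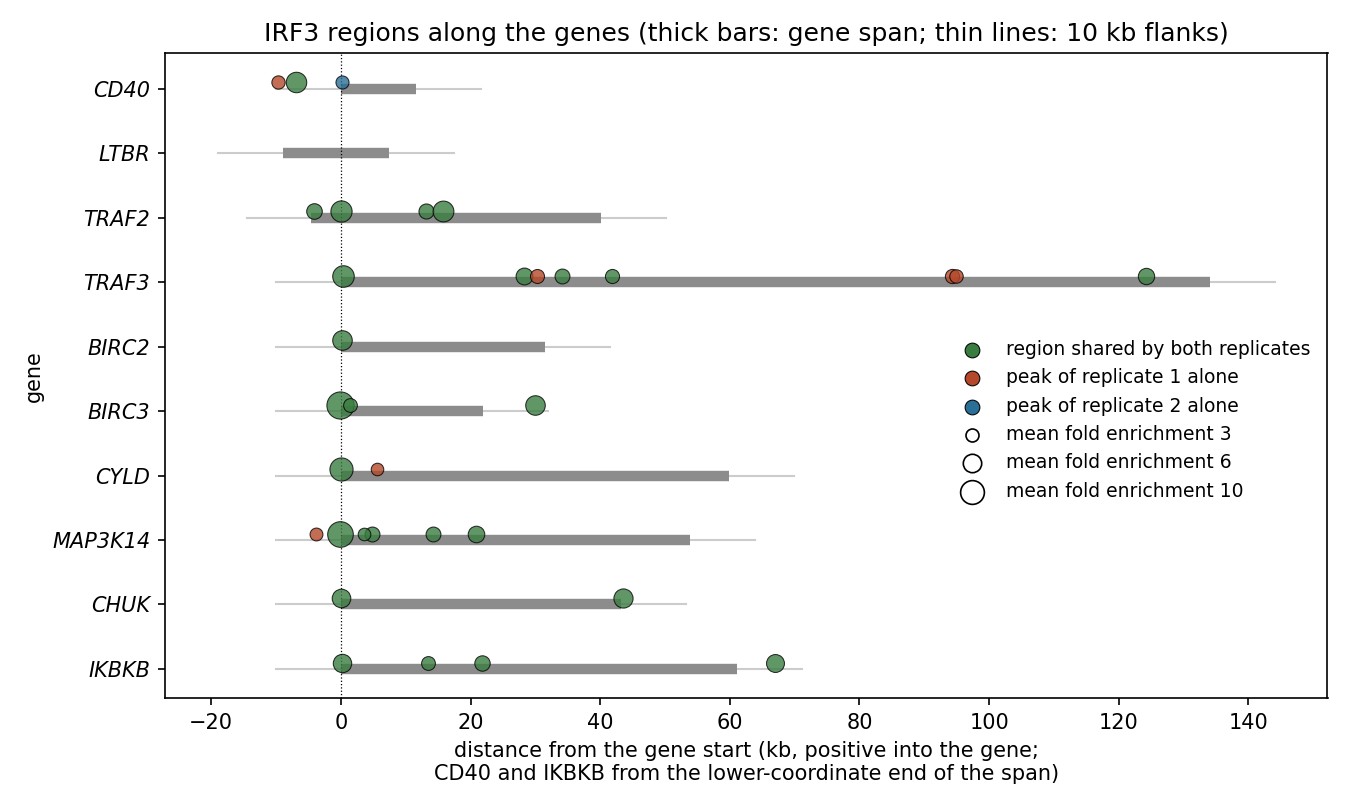
Position of the IRF3 regions along the 10 genes, in kb from the annotated start (from the lower-coordinate end for CD40 and IKBKB), with shared regions in green, peaks of replicate 1 alone in red and of replicate 2 alone in blue, and circle area scaled to the mean fold enrichment. The largest circles, of BIRC3 and MAP3K14, lie at the start line, TRAF3 and MAP3K14 carry several weaker regions inside the gene, and the circle in the BIRC3 flank is the start region of BIRC2.

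The receptors had no shared region at a start. CD40, which binds CD40 ligand and signals through TRAF3, spans chr20:46118314-46129858. Its shared region, at chr20:46111065-46111767, lay 6.93 kb beyond the lower-coordinate end of the gene, with a fold enrichment of 7.86 in replicate 1 and 7.01 in replicate 2 and pileups (fragments stacked at the summit) of 85 and 67. At that end of CD40 itself, replicate 2 alone had a peak at chr20:46118295-46118557 with a fold enrichment of 3.04 and a pileup of 22. Replicate 1 alone had a peak 9.65 kb from the gene with a fold enrichment of 3.13, just inside the 10 kb limit. LTBR, the lymphotoxin beta receptor, which spans chr12:6375160-6391566, had no peak in either list. The shared region nearest to it lay just outside the limit, 11.6 kb from the span and inside SCNN1A, with fold enrichments of 5.90 and 7.13.

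TRAF2 carried 4 shared regions, with the strongest at the start and another, nearly as strong, inside the gene. TRAF2 is the adaptor that tethers the cIAP ligases, and it spans chr9:136881958-136926607 with its annotated start at position 136886516. The start region, chr9:136885863-136887092, was enriched 8.17-fold in replicate 1 and 7.80-fold in replicate 2, with pileups of 181 and 121, with summits 327 and 359 bp before the start. A region 15.6 kb into the gene, chr9:136901549-136903099, had nearly the same values, 8.04 and 7.34 with pileups of 174 and 125. Its strength percentile was 82.8, beside 85.1 for the start region, and it was the strongest of the 14 regions inside gene spans. The other regions were weaker, with 4.01 and 4.64 near the lower-coordinate end of the span, 106 bp inside it, and 3.34 and 4.73 at 12.9 kb from the start.

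TRAF3, the adaptor whose loss frees NIK, spans chr14:102777449-102911500 and had 5 shared regions and 3 of replicate 1 alone. The start region, chr14:102777376-102778104, had fold enrichments of 9.33 and 7.14, with summits 148 and 157 bp past the start. The κB core printed above lies inside this region. The 4 shared regions inside the gene lay 28.1, 34.0, 41.8 and 124 kb from the start. The fold enrichment at 28.1 kb was 3.66 in replicate 1 and 6.43 in replicate 2, and at 124 kb 4.93 and 4.54. The peaks of replicate 1 alone, at 30.3, 94.3 and 94.8 kb, had 3.50, 3.59 and 3.23.

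TRAF3 stood apart from the other start regions in pileup and background. Its start pileup was 58 fragments in replicate 1 and 37 in replicate 2, while the other 7 start regions had 76 to 313 and 53 to 196. Its −log10 q was 36.6 in replicate 1, above CHUK (31.0) and IKBKB (34.3), and 19.7 in replicate 2, where CHUK (25.5) was the next lowest start region. Ranked by pileup rather than by fold enrichment, the TRAF3 start region fell at the 33.3 percentile of all shared regions, against 81.8 by fold enrichment. The pileup divided by the fold enrichment approximates the background that the peak caller set at the summit, and this was 6.08 to 12.0 fragments over the TRAF3 peaks in replicate 1 and 5.05 to 6.17 in replicate 2. The other 7 start regions had 13.4 to 26.1 and 8.00 to 15.9. In replicate 2 the lowest value of any peak in that list was 4.97, and the TRAF3 start region had 5.18. The quotient is approximate, so small gaps between such values were not read as differences in background. Whether the local input set the background at the TRAF3 peaks was not tested.

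The low background was not limited to TRAF3. Within 1 Mb of the gene on each side the median background of all peaks was 0.619 of the median of the whole list in replicate 1 and 0.583 in replicate 2. Around the other 9 genes it was 0.840 to 1.21 and 0.874 to 1.18. Over all of chromosome 14 the median was 9.89 and 6.18 fragments, the lowest of the 22 autosomes in both replicates, followed by chromosome 13 with 11.3 and 7.65. In replicate 1 the start regions of TRAF3 and MAP3K14 had nearly equal fold enrichments, 9.33 and 9.30, at pileups of 58 and 236. The part of the low background in the TRAF3 values was not tested.

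**Figure D3:**
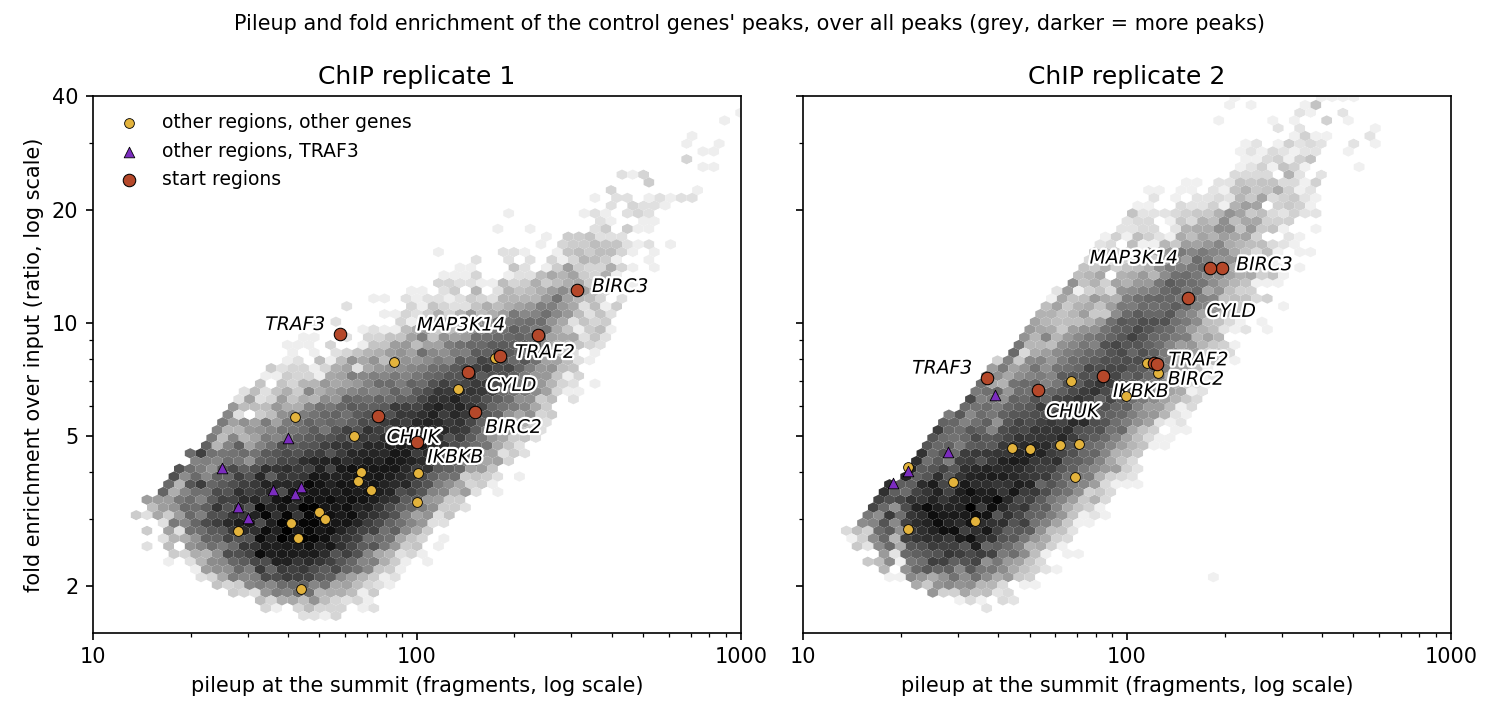
Fold enrichment over input (ratio, log scale) against pileup at the summit (fragments, log scale) for the peaks of the 10 genes in each ChIP replicate, over all peaks of the list in grey. The TRAF3 start region lies left of the other start regions, with 58 and 37 fragments at fold enrichments of 9.33 and 7.14. The median pileups of all peaks were 61 and 45. BIRC3 combines 313 and 196 fragments with 12.2 and 14.0.

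BIRC3 had the strongest region of the set by strength percentile. BIRC3 encodes cIAP2, is itself a well-known NF-κB target, and spans chr11:102317484-102339403. Its start region, chr11:102316423-102318148, had 12.2-fold enrichment in replicate 1 and 14.0-fold in replicate 2, pileups of 313 and 196 and −log10 q of 218 and 150. The region covers the whole printed window. The summit of replicate 1 lay 162 bp before the start, between the κB core and the IRF core, and that of replicate 2 lay 260 bp before it, just outside the window. Its strength percentile was 96.7, and 90.6 among all genes occupied at a start. A second region, chr11:102318346-102319554, lay just over 1 kb inside the gene and differed between replicates, with a fold enrichment of 1.96 in replicate 1 and 4.76 in replicate 2, a ratio of 2.43.

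BIRC2, the neighbouring gene that encodes cIAP1, spans chr11:102347214-102378670 and had 1 region. It lay at chr11:102346643-102348263, 205 and 197 bp before the nearer annotated start, with fold enrichments of 5.79 and 7.78 and pileups of 151 and 124. Both summits lay inside the first BIRC2 promoter window. Since this region is 7.61 kb past the end of BIRC3, it counts in the windows of both genes but was counted once in the 25. The BIRC3 start region was above the BIRC2 one in both replicates, by fold enrichment and by pileup.

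CYLD, which removes ubiquitin chains and dampens NF-κB signalling, spans chr16:50742086-50801935. Its start region, chr16:50741396-50742758, covers all 3 annotated starts, and the summits lay 65 and 62 bp past the second of them. The fold enrichment was 7.39 in replicate 1 and 11.6 in replicate 2, with pileups of 144 and 154. The first window, which holds the IRF core and the κB core, lies within the region but did not contain the summits. These fell in the third window. Inside CYLD there was a single further peak, of replicate 1 alone, with a fold enrichment of 2.79.

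MAP3K14, which encodes NIK, had the second strongest start region by the same measure and 4 weaker ones inside the gene. It spans chr17:45263119-45317020 on the minus strand. The start region, chr17:45316361-45317997, was enriched 9.30-fold in replicate 1 and 14.0-fold in replicate 2, with pileups of 236 and 181 and summits 115 and 103 bp past the start. In replicate 1 it was made of 2 peaks and in replicate 2 of 1. Its strength percentile was 96.6, next to 96.7 for BIRC3. The regions inside the gene had 2.68 and 2.97 at 3.62 kb, 3.99 and 3.90 at 4.79 kb, 5.01 and 2.83 at 14.3 kb, and 5.62 and 4.14 at 20.9 kb. The replicates thus differed at 14.3 kb, where the value of replicate 2 was 0.565 of that of replicate 1. A peak of replicate 1 alone lay 4.10 kb upstream, with 2.94.

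CHUK and IKBKB, which encode the kinases IKKα and IKKβ, had the lowest strength percentiles of the 8 start regions. By pileup the TRAF3 start region was below both, and in replicate 2 its fold enrichment (7.14) was just below that of IKBKB (7.21). CHUK spans chr10:100186319-100229596 on the minus strand, and its start region, chr10:100229287-100229984, had fold enrichments of 5.66 and 6.62 and pileups of 76 and 53. Both summits, 47 and 45 bp past the start, lay inside the promoter window. A slightly higher value in replicate 1 (6.66, with 6.40 in replicate 2) was found past the far end of CHUK at chr10:100185584-100186704. That summit was 398 bp from CHUK and 108 bp from an end of ERLIN1.

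IKBKB, the catalytic subunit of the canonical pathway, spans chr8:42271302-42332460. A region at its lower-coordinate end, chr8:42270934-42271998, was enriched 4.82-fold in replicate 1 and 7.21-fold in replicate 2, with pileups of 100 and 84. Inside the gene 2 weaker regions had 3.01 and 3.77, and 3.80 and 4.61. The flank region, 5.83 kb past the other end, had 3.60 and 7.81 and lay 203 bp from an end of POLB. Its value in replicate 2 was 2.17 times that in replicate 1.

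The order of the start regions by strength percentile was BIRC3 (96.7), MAP3K14 (96.6), CYLD (92.1), TRAF2 (85.1), BIRC2 (82.5), TRAF3 (81.8), CHUK (78.7) and IKBKB (71.8). Neighbours in this order were often closer than the replicates of 1 gene. The worse ranks are themselves ranked, so a region can stand higher by this measure than in either replicate. Among shared regions BIRC2 was at 73.7 in replicate 1 and 76.8 in replicate 2, both below its 82.5. MAP3K14, at 94.1 and 94.3, was likewise below its 96.6, while TRAF3, at 94.2 and 72.7, had its 81.8 in between. By percentile of fold enrichment within its own list, BIRC3 was at 98.3 in replicate 1 and 95.5 in replicate 2, and MAP3K14 at 95.4 and 95.6, so their ranges overlap. CYLD, at 89.8 and 92.6, was below both in each list. TRAF2, at 92.7 and 82.0, overlapped CYLD, and BIRC2, at 79.2 and 81.8, lay just under TRAF2. TRAF3 had the widest spread, with 95.5 and 78.6, and its range took in those of CYLD, TRAF2 and BIRC2. CHUK, at 78.0 and 75.5, lay within the range of IKBKB, at 68.0 and 79.0.

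The replicates put the summits close together. In the 25 shared regions the summits lay a median of 45 bp apart, with a range of 1 to 309 bp, compared with a median of 48 bp over all shared regions, and 20 of the 25 were within 100 bp. Replicate 2 had the higher fold enrichment in 15 of the 25 and in 6 of the 8 start regions. Over all shared regions it was higher in 68.2%. The exceptions at starts were TRAF2 and TRAF3.

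A list of 36 other genes of the pathway was also chosen with earlier results of these data known. Of these, 29, or 80.6%, had a shared region at a start, beside 51.5% of all protein-coding genes. The region was present in 6 of 13 ligands and receptors, 10 of 10 adaptors and ubiquitin enzymes, 6 of 6 kinases and kinase partners and 7 of 7 NF-κB and IκB proteins. In the set, neither of the receptors and 8 of the 8 adaptors, enzymes and kinases had one. The median strength percentile of the occupied genes was 58.8 for ligands and receptors, 84.8 for adaptors and ubiquitin enzymes and 81.2 for kinases. It was 90.9 for NF-κB and IκB proteins, and 83.8 for the 8 occupied genes of the set. For TNFRSF17, TNFRSF12A, BTRC, RELB and NFKBIE, either end of the span stood in for the start. The 90.9 is the value of NFKBIE, from a region 741 bp from an end, while another shared region lay 165 bp from an end.

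By strength percentile of the region at the start, NFKBIA (99.1) and NFKB2 (98.5) were above every gene of the set, and RELB (94.7) was below BIRC3 and MAP3K14. NFKBIA, which encodes IκBα, had fold enrichments of 14.6 and 23.0, and NFKB2, the precursor that IKKα marks for processing, 12.0 and 21.1. RELB, the partner of NFKB2, had 8.24 and 17.7. That RELB region lay 994 bp from an end of the span, and another shared region lay 194 bp from an end. Which end is the RELB start was not read, so its region may not be at the start. BIRC3, at 12.2 and 14.0, was below NFKBIA in both replicates, while it was slightly above NFKB2 in replicate 1 and below it in replicate 2. NFKBIA lies on chromosome 14, like TRAF3, where the median background of the peaks was 0.595 and 0.578 of the list medians. Among adaptors and ubiquitin enzymes the strongest at the start were FBXW7 (9.18 and 14.7), TNFAIP3 (10.1 and 13.3), which encodes the NF-κB inhibitor A20, and TRAF6 (7.49 and 10.9). Among kinases and partners they were IKBKG (10.1 and 10.1), which encodes NEMO, TAB1 (6.27 and 11.0) and TAB2 (5.69 and 11.3). Each was above CHUK and IKBKB in both replicates. IKBKG lies on chromosome X, where the median background was 0.622 and 0.646 of the list medians. The part of the low background in the NFKBIA and IKBKG values was not tested. The strongest receptor by this measure was TNFRSF17, the plasma cell receptor BCMA, with 7.58 and 12.3, followed by TNFRSF1B (5.43 and 8.38) and TNFRSF12A (4.30 and 5.16). Elsewhere in their windows TNFRSF1B had a region at percentile 97.5 and TNFRSF13B, without one at the start, a region at 93.5. Both were above the 92.9 of TNFRSF17.

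**Figure D4:**
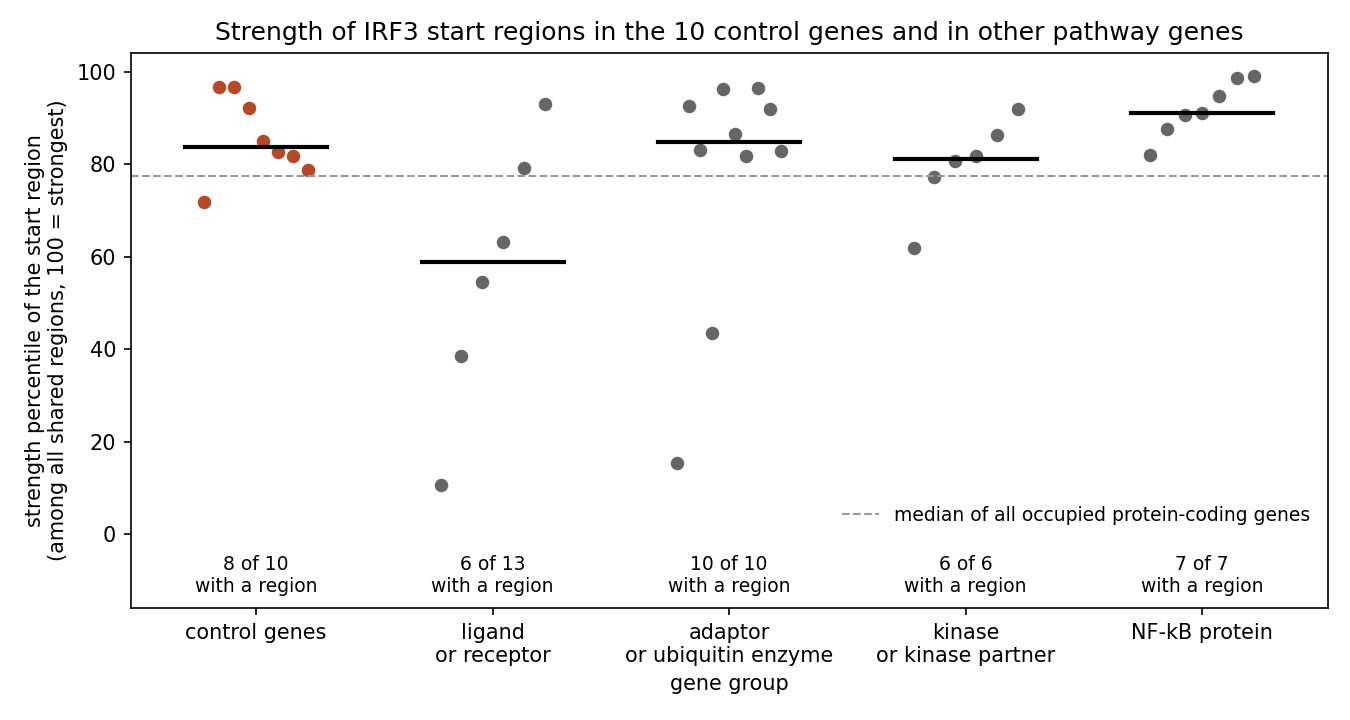
Strength percentile of the shared IRF3 region at the start (among all shared regions, 100 being the strongest) for the 10 control genes, at the left, and for 4 groups of other pathway genes, with bars at the group medians and a dashed line at the median of all occupied protein-coding genes (77.5). The control genes lie between 71.8 and 96.7, the NF-κB proteins have the highest median (90.9), and 6 of 13 ligands and receptors had a region. For genes without an annotated start, RELB and NFKBIE among them, the region lies within 1 kb of either end of the span.

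The peak caller was given 38568845 ChIP and 58025919 input tags for replicate 1, with 46474586 and 60348415 for replicate 2, and returned 41880 and 41666 peaks. Merging left 8164 regions of replicate 1 alone and 8679 of replicate 2 alone beside the shared ones. As a look at the labelled cell type, marker genes chosen with earlier results of these data known were counted. A shared region stood at the start of 7 of 7 plasma cell and 1 of 5 B cell markers. It stood there in 2 of 5 T or NK cell and 1 of 5 myeloid markers. The share over all protein-coding genes was 51.5%. Of the markers with a region, TNFRSF17, SLAMF7, CD3E and SPI1 had either end of the span in place of the start. These counts describe binding, not expression.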

How the data were processed

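IRF3 ChIP-seq peak lists of 2 MM1.S replicates were analysed. The authors ran MACS2 2.1.2 on each ChIP library against its own input, per the file headers, at a q-value cutoff of 5.00e-02, a genome size of 2.70e+09 and 74 bp tags. The submitters' processing notes name the build GRCh38, MACS2 2.1.1, SAMtools 1.2, BWA 0.7.15, deepTools 3.3.1 and Picard 2.6.0, without roles. Whether duplicates or problem regions were removed earlier is not stated there. The deposited fold enrichment, called fold enrichment over input above, is a ratio of ChIP to the background that the peak caller set at the summit. The deposited pileup is a signal of stacked fragments. The deposited −log10 p and −log10 q stood under damaged column names. They were told apart by MACS2 column order and by values, since −log10 p exceeded −log10 q at every peak. Each value is the authors' own for a peak, used here to describe and rank.

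Peaks overlapping by at least 1 bp were merged, and the strongest peak of each replicate gave the region's values (Python 3.11.15, numpy 2.4.6, pandas 2.3.3, matplotlib 3.10.9). The steps were tested on simulated peaks. Gene spans came from RefSeq GRCh38.p14. Start sites came from the promoter windows for 15841 of 20033 genes. For the rest, either end of the span stood in, and this use of starts followed the planned wording. These included CD40, IKBKB, TNFRSF17, TNFRSF12A, BTRC, RELB and NFKBIE. Where several regions qualified at a gene, the strongest was used. The list of other pathway genes, the markers and the 10 genes were chosen with earlier results of these data known. All 10 genes are named, with up to 3 genes of each pathway group with the best-ranked start regions, NFKB2, RELB, TNFRSF17, NFKBIA and TNFAIP3 in any case, and neighbours whose ends were nearer to a summit. The genes next to the 10 kb limit were named for their place. Depth limits the weakest peaks, and no count of reads outside peaks was used, so a gene without a peak is below the caller's threshold and not shown to be unbound. Flank, start distance, overlap rule, q and fold minimum, ranking and each replicate were varied.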

Additional observations from a re-analysis of the deposited data

How the results depend on the processing

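Of 46 alternatives for the counts and the median strength, 45 stayed within 1.5 times the reported count or within the spread between replicates. The exception was a minimum fold enrichment of 10 in both replicates, which left 1 gene, BIRC3, in place of 8. Gene counts of 8 or 9 of 10, and of 29 of 36 for the other pathway genes, could not rise by 1.5 times. They could only have moved downwards. The spread for the median came from the single-replicate medians that it was used to judge. The count of genes with a shared region in the window ran from 7 (no flank) to 10 (a flank of 20 kb, which took in LTBR). The count at the start ran from 7 under a reciprocal overlap of 50%, which lost MAP3K14, to 9 without replicate 1, which gained CD40. The shared regions numbered 17 (a −log10 q of at least 10) to 31 (a flank of 20 kb), and with a single list the regions were 27 without replicate 1 and 32 without replicate 2. The median strength percentile of the strongest regions, reported as 82.5, ran from 76.9 without replicate 1 to 89.4 without replicate 2. For single genes, 13 of 36 alternatives moved the percentile by more than the spread between replicates. The widest was TRAF3, at 81.8 by fold enrichment, 60.9 by −log10 q and 33.3 by pileup, and the cause was not tested. The spread was the standard deviation of the gene's single-replicate percentiles, so genes with close replicates counted as moved at small changes. MAP3K14, for example, counted as moved from 96.6 to 94.3 without replicate 1 and to 94.1 without replicate 2. Other moves were larger. CD40 went from 81.1 to 66.3 by pileup, CHUK from 78.7 to 68.8 without replicate 1 and BIRC2 from 82.5 to 73.7 without replicate 2. The count of 13 thus mixes small and larger changes and is by itself no measure of instability. The start count with either end of the span in place of annotated starts, an alternative added after the data were seen, was 8. No paired analysis was possible because no result comes from a test between groups.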
